A study of Mus musculus with 12 samples.

Results

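The genes described here encode enzymes of fatty acid beta-oxidation in mitochondria and peroxisomes, the carnitine shuttle that feeds it, and the peroxins that build peroxisomes. They were chosen as 30 genes by name and all genes whose symbol is Pex followed by a digit. All 30 named genes were measured and 12 Pex genes were found, which gave 42 genes of 12393 on the array. They comprised 13 genes of peroxisomal oxidation, 14 of mitochondrial oxidation, 3 of the carnitine shuttle and 12 peroxins.

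The 12 one-colour arrays measured RNA of BMEL cells (bipotential mouse embryonic liver), lines from embryonic liver of the CBA/J x C57Bl/6J cross that can take on features of hepatocytes or of bile duct cells. The independently isolated lines 14B3 and 9A1 were each grown in Matrigel, a basement membrane gel, as aggregates, and in basal culture, with 2 arrays for each of the 6 groups. Labels gave 10 days for Matrigel cultures, except for Matrigel 14B3 replicate 1, labelled 5 days, and 5 days for aggregates, and no time for basal cultures. Each line stands for 1 isolate, and time and culture cannot be told apart between Matrigel and aggregates. Values are the deposited signal intensities, and changes are differences of log2 intensity, so that 1 log2 unit is a 2-fold change.

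Long fatty acids enter mitochondria as carnitine esters and are then shortened by a repeated cycle of dehydrogenation, hydration, a further dehydrogenation and thiolytic cleavage, which yields acetyl-CoA. Peroxisomes run a parallel cycle on very long, branched and bile acid side chains, and peroxins import its enzymes from the cytosol. In liver both pathways are known to gain activity around birth, and many of their genes are targets of the nuclear receptor PPAR alpha, encoded by Ppara.

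Promoter sequences are shown for 3 genes that represent the patterns below: Acaa1b, the gene that differed most between the lines, Ehhadh, a peroxisomal gene that rose strongly in both cultures, and Cpt2, a shuttle gene whose line means lay close together in each culture. Each is the 250 bases before the RefSeq start on build GRCm38.p6, read 5′ to 3′ on the gene's strand, which is the minus strand for all 3. Capitals mark the GC box GGGCGG, the CCAAT box and the nuclear receptor half-site AGGTCA on either strand. Acaa1b lies at chr9:119157094-119157343, Ehhadh at chr16:21787835-21788084 and Cpt2 at chr4:107923590-107923839.
Acaa1b: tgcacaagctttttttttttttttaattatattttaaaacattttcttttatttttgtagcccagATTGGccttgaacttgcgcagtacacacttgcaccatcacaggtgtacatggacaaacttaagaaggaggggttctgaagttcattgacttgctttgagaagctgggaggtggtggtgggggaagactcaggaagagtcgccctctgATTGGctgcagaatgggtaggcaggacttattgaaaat
Ehhadh: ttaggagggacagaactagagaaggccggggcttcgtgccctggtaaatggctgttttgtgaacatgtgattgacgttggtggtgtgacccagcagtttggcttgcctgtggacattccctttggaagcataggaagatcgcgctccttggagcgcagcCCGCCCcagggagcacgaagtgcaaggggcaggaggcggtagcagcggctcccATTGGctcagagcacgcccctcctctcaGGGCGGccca
Cpt2: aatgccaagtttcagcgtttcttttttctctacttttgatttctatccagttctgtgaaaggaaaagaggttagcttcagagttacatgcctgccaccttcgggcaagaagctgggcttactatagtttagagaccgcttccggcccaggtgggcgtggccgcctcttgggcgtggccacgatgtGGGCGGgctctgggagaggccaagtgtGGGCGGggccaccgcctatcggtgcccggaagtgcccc

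The Acaa1b stretch held 41.6% G and C, no GC box and 2 CCAAT boxes. The stretch searched for Acaa1a, a closely related thiolase gene on the same chromosome, held 53.6% G and C, 3 GC boxes and 3 CCAAT boxes. The Acaa1a stretch began at chr9:119341044, inside the span of that gene (119341028 to 119350296), whereas the Acaa1b stretch lay outside its gene. The Acaa1a and Acaa1b counts are therefore not from like positions. The Ehhadh stretch held 60.4% G and C, 2 GC boxes and 1 CCAAT box, and the Cpt2 stretch 56.8% G and C, 2 GC boxes and no CCAAT box. RefSeq promoters matched 34 of the 42 genes by Entrez Gene number, and Acaa2, Amacr, Crat, Decr1, Hsd17b4, Pex19, Pex2 and Pex5l had no match. Over both strands, the GC box was present in 23 of the 34 (67.6%), against 57.0% of 9882 array genes with a promoter, and CCAAT in 16 (47.1%), against 39.8%. The half-site AGGTCA was present in 5 of 34 (14.7%), namely Acadm, Acadvl, Cpt1a, Echs1 and Scp2, against 14.1% of array genes. Its direct repeat with 1 base between the copies, the element that PPAR receptors bind, had no exact match in the 34, against 0.0405% of array genes, and with up to 2 mismatches it matched in Echs1 and Etfa (5.88%), against 3.29%. Exact matches are so rare among array genes that none would be likely in any 34 genes, so their absence here tells nothing about these genes. These counts describe letters in the 250 bases searched, where longer motifs contain shorter ones, and say nothing on sites elsewhere.

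In aggregates nearly the whole pathway was expressed at higher levels than in basal culture. By limma with Benjamini-Hochberg adjustment over all genes at 0.05, 39 of the 42 genes rose (92.9%) and 0 fell, also at an unadjusted p below 0.05, where 22.9% of all genes rose and 23.4% fell. The median change over the 42 was 1.10 log2 units, against 0.10 over all genes, and 24 of them rose by at least 1 log2 unit, as did 7.08% of all genes. For 37 genes every aggregate array lay above every basal array, as for 24.6% of all genes. In bulk RNA, fewer cells of a type and less RNA per cell cannot be told apart.

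**Figure D1:**
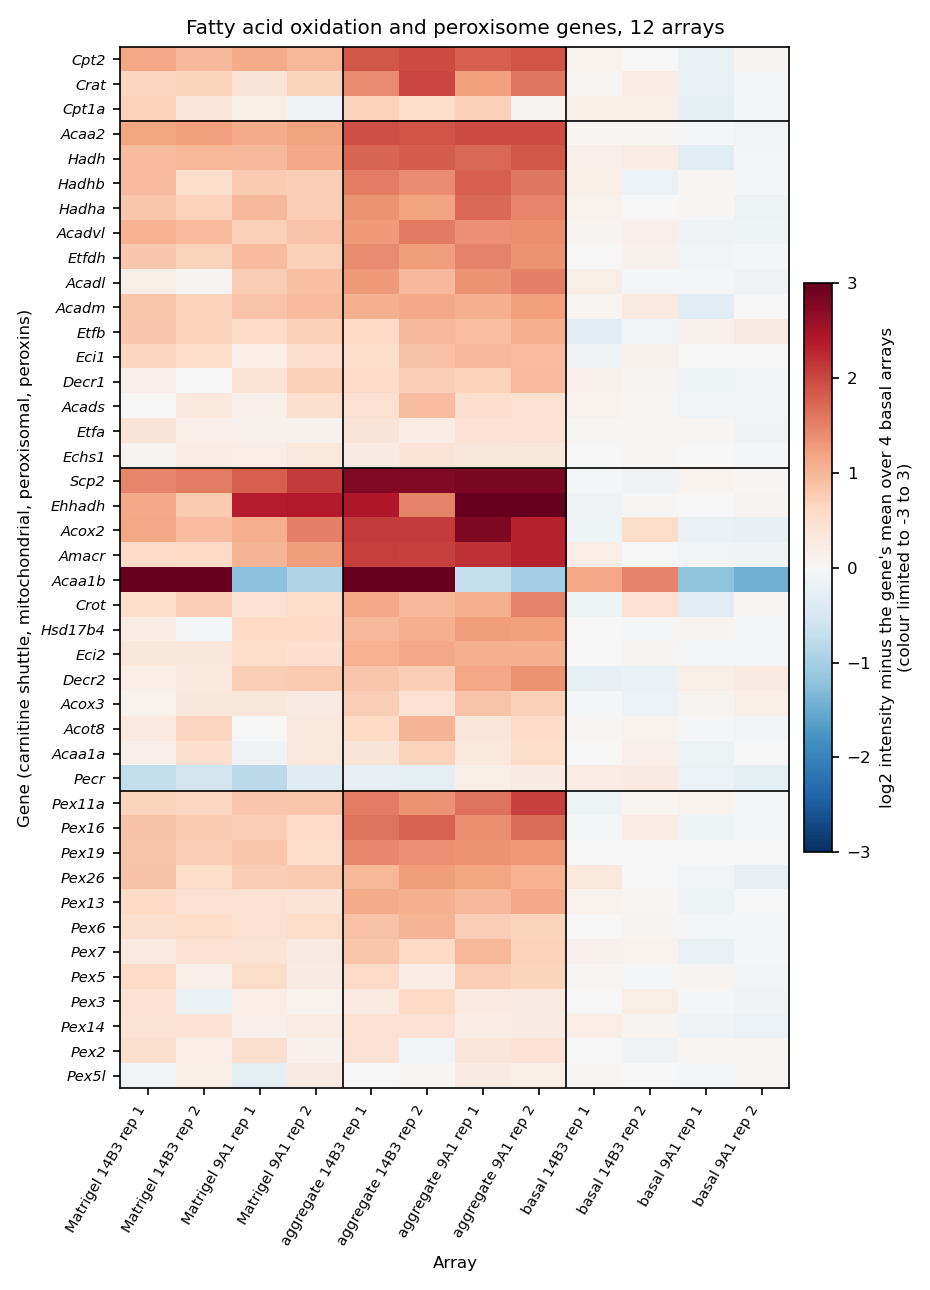
Log2 intensity of the 42 genes on each of the 12 arrays, minus the gene's mean over the 4 basal arrays, with 1 column an array and 1 line a gene, ordered by class from carnitine shuttle to peroxins. Red marks levels above the basal mean, blue levels below it, and the colour scale ends at 3 log2 units; the aggregate columns are the darkest for most genes, and Acaa1b is red in the 14B3 columns and blue in the 9A1 columns.

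All 3 carnitine shuttle genes rose in aggregates, with a median of 1.56 log2 units. Cpt2 (Entrez Gene 12896), the inner membrane transferase that turns acylcarnitines back into acyl-CoA, gave 2221 and 2385 in 14B3 aggregates and 2130 and 2265 in 9A1 aggregates, against 657 and 613 in 14B3 basal cultures and 535 and 649 in 9A1 basal cultures. No aggregate array came near a basal array, and Cpt2 was 3.68-fold higher (log2 change 1.88, SE 0.10, adjusted p = 2.53e-08). Crat, the carnitine acetyltransferase that acts on short chains, rose by 1.56 (SE 0.14). Cpt1a, the outer membrane enzyme that commits fatty acids to mitochondria and is inhibited by malonyl-CoA, rose least, by 0.50 (SE 0.15, adjusted p = 0.0129), and its aggregate and basal arrays overlapped.

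All 14 genes of mitochondrial oxidation rose in aggregates, with a median of 1.20 log2 units and no overlap between aggregate and basal arrays for any of them. Acaa2 (Entrez Gene 52538), the thiolase that ends the cycle, gave 4912 and 4784 in 14B3 aggregates and 5034 and 5030 in 9A1 aggregates, against 1354 and 1341 in 14B3 basal cultures and 1264 and 1215 in 9A1 basal cultures. The lines lay close together in both cultures, and the aggregates were 3.82-fold higher (log2 change 1.93, SE 0.08, adjusted p = 5.52e-09).

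Among the acyl-CoA dehydrogenases, which open the cycle for chains of different lengths, the very long chain gene Acadvl rose by 1.40, the long chain gene Acadl by 1.28, the medium chain gene Acadm by 1.12 and the short chain gene Acads by 0.59. Hadha and Hadhb encode the subunits of the trifunctional protein, which handles the last steps for long chains, and rose by 1.43 and 1.58. Hadh, the dehydrogenase for shorter chains, rose by 1.79, while Echs1, the matching hydratase, rose by 0.34 (SE 0.09). Etfdh, which passes electrons on to the respiratory chain, rose by 1.38, and Etfb and Etfa, the subunits of the flavoprotein that supplies it, by 0.89 and 0.38. Eci1 and Decr1, the isomerase and reductase for unsaturated chains, rose by 0.83 and 0.74. Acadl rested on its brighter probe set, and a dimmer set of the gene gave 0.21 (adjusted p = 0.217 in a fit over all probe sets).

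Of the 13 genes of peroxisomal oxidation 12 rose in aggregates, with a median of 1.13 log2 units, and they held the 4 largest rises among the 42 genes. Scp2 (Entrez Gene 20280) encodes sterol carrier protein and, from a longer transcript, the thiolase for branched chains. It gave 6380 and 6352 in 14B3 aggregates and 6597 and 6592 in 9A1 aggregates, against 905 and 857 in 14B3 basal cultures and 992 and 956 in 9A1 basal cultures. The aggregate arrays differed little among themselves and were far above the basal arrays, by 6.99-fold (log2 change 2.81, SE 0.09, adjusted p = 7.37e-10). The other probe sets of Scp2 rose by 1.38 to 3.53 log2 units.

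Ehhadh (Entrez Gene 74147), the bifunctional enzyme of the straight chain pathway, gave 124 and 66.2 in 14B3 aggregates and 303 and 219 in 9A1 aggregates, against 21.8 and 24.2 in 14B3 basal cultures and 23.2 and 25.1 in 9A1 basal cultures. It was 6.49-fold higher in aggregates (log2 change 2.70, SE 0.18, adjusted p = 1.89e-07), without overlap but at low intensity. Genes of tissues such as pancreas, lung and testis served as a guide to background: 24 of them without any call gave log2 intensities of 4.30 to 9.29 on single arrays, with a 90th percentile of 8.55. Ehhadh stayed below that percentile in the mean of each of the 6 groups, as did Acox3 and Pex5l. A further 8 genes (Acaa1b, Acox2, Crat, Decr2, Amacr, Pex11a, Pex26 and Pex3) were below it in their lowest group.

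Acox2 (Entrez Gene 93732), the oxidase for branched chains and bile acid side chains, gave 1251 and 1233 in 14B3 aggregates and 2028 and 1429 in 9A1 aggregates, against 263 and 428 in 14B3 basal cultures and 251 and 250 in 9A1 basal cultures. Basal arrays were far below aggregates in each line (log2 change 2.32, 5.01-fold, SE 0.17, adjusted p = 3.18e-07). Amacr (Entrez Gene 17117), the racemase that readies the same substrates, gave 624 and 613 in 14B3 aggregates and 674 and 730 in 9A1 aggregates, against 169 and 149 in 14B3 basal cultures and 141 and 137 in 9A1 basal cultures. The 4 aggregate arrays lay close together and all above the basal arrays (log2 change 2.15, 4.43-fold, SE 0.09, adjusted p = 6.17e-09). Basal means of Acox2 and Amacr, 8.18 and 7.21 log2 units, were in the background range.

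Hsd17b4, the bifunctional enzyme of the branched chain pathway, rose by 1.13, against 2.70 for its counterpart Ehhadh, and Crot, which prepares shortened chains for export to mitochondria, rose by 1.16. Eci2 and Decr2, the peroxisomal isomerase and reductase for unsaturated chains, rose by 1.08 and 1.02. Acox3, a further branched chain oxidase, rose by 0.69 and the acyl-CoA thioesterase gene Acot8 by 0.64. The thiolase genes Acaa1a and Acaa1b rose by 0.49 and, averaged over the lines, 1.66. Both Acaa1a probe sets carry the suffix that marks possible cross-hybridization, so signal of this gene may include related transcripts, and the dimmer set rose by 1.11.

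Pecr (Entrez Gene 111175), a reductase known for fatty acid elongation and phytol breakdown, was the exception among the peroxisomal enzymes. It gave 528 and 524 in 14B3 aggregates and 707 and 746 in 9A1 aggregates, against 733 and 747 in 14B3 basal cultures and 561 and 511 in 9A1 basal cultures. The lines moved in opposite directions, so the average change was −0.03 (SE 0.11, adjusted p = 0.857). Within 14B3 Pecr fell by 0.49 (adjusted p = 0.0256) and within 9A1 it rose by 0.44 (adjusted p = 0.0397), but the difference between these responses, −0.93 (SE 0.22), did not pass the test (adjusted p = 0.114).

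Of the 12 peroxins 10 rose in aggregates, with a median of 0.81 log2 units. Pex11a, which acts in peroxisome division, rose by 1.64 (SE 0.11), and Pex16 and Pex19, which place proteins in the peroxisomal membrane, by 1.62 (SE 0.11) and 1.37 (SE 0.09). Their partner Pex3 rose by 0.36 (SE 0.14, adjusted p = 0.0486), a call lost with the replicate number as a block (adjusted p = 0.0501). Pex26, the membrane anchor of the ATPase that recycles import receptors, rose by 1.12 and Pex6, a subunit of that ATPase, by 0.83. Pex13 and Pex14, the docking proteins for cargo receptors, rose by 1.07 and 0.34, and the receptors Pex7 and Pex5 by 0.78 and 0.55.

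Pex2, a ubiquitin ligase of the import machinery, did not pass the test in aggregates (0.28, SE 0.13, adjusted p = 0.0976), but did with the block (adjusted p = 0.0406). Pex5l, a relative of Pex5 known from brain, gave 0.12 (SE 0.12, adjusted p = 0.446) at background intensity. The Pex16 value rested on 1 of its 2 probe sets, and the dimmer set gave 0.13 (adjusted p = 0.323 in the fit over all probe sets). A dimmer set of Pex6 gave 0.24 (adjusted p = 0.0529) and one of Cpt1a 0.23 (adjusted p = 0.224), and the second probe set of Pex11a gave 2.44.

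**Figure D2:**
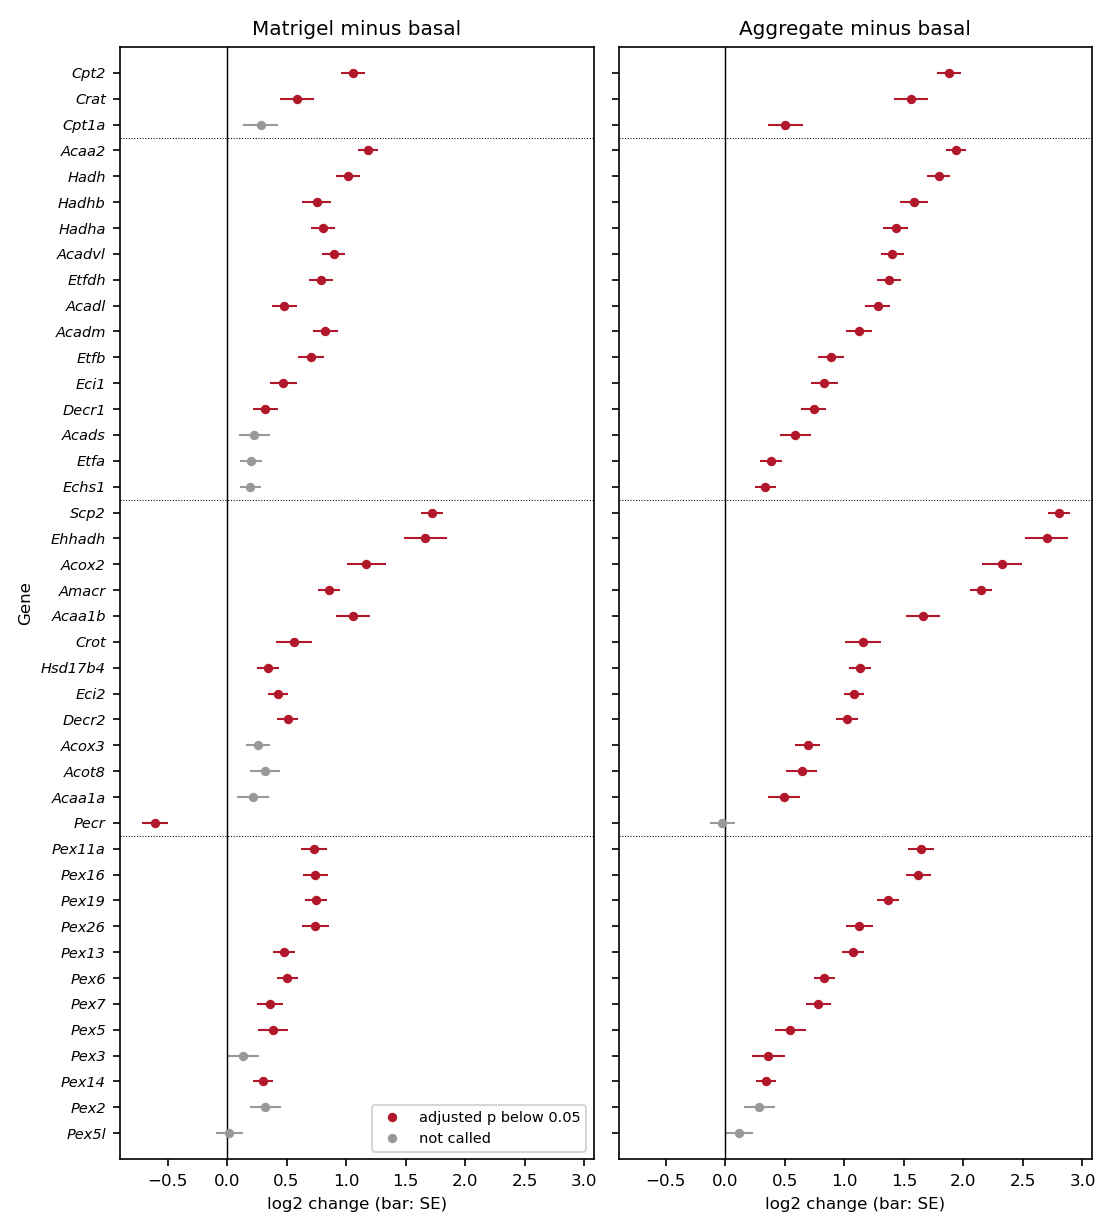
Log2 change of each of the 42 genes in Matrigel (left) and in aggregates (right), both minus basal culture, with bars for the standard error from limma; red points passed the test at an adjusted p of 0.05 and grey points did not. In aggregates 39 points are red and above 0, and in Matrigel 31 are red and above 0 and 1, Pecr, is red and below 0.

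Matrigel cultures also expressed most of the pathway above basal culture, by smaller amounts. Of the 42 genes 31 rose (73.8%) and 1 fell, where 14.1% of all genes rose and 14.3% fell. The median was 0.51 log2 units, against −0.04 over all genes. For 28 genes every Matrigel array lay above every basal array, as for 12.6% of all genes. The 7 genes that rose by at least 1 log2 unit, as did 3.97% of all genes, were Scp2, Ehhadh, Acaa2, Acox2, Acaa1b, Cpt2 and Hadh.

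Scp2 gave 2561 and 2682 in 14B3 and 3219 and 3933 in 9A1 Matrigel cultures, 3.30-fold above basal culture (log2 change 1.72, SE 0.09, adjusted p = 1.15e-07). Ehhadh gave 51.9 and 40.3 in 14B3 and 121 and 123 in 9A1 Matrigel cultures, 3.17-fold above basal culture (log2 change 1.66, SE 0.18, adjusted p = 3.51e-05). For both genes each Matrigel array exceeded the basal values given above, and the 9A1 arrays were the higher ones.

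Acaa2 gave 2952 and 3034 in 14B3 and 2790 and 2996 in 9A1 Matrigel cultures, 2.28-fold above basal culture (log2 change 1.19, SE 0.08, adjusted p = 9.83e-07). Cpt2 gave 1356 and 1202 in 14B3 and 1315 and 1225 in 9A1 Matrigel cultures, 2.08-fold above basal culture (log2 change 1.06, SE 0.10, adjusted p = 1.06e-05). Values of the lines overlapped for both genes. Acox2 gave 646 and 554 in 14B3 and 615 and 829 in 9A1 Matrigel cultures, 2.25-fold above basal culture (log2 change 1.17, SE 0.17, adjusted p = 2.57e-04), without overlap between Matrigel and basal arrays.

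By class, 2 of 3 shuttle genes, 11 of 14 mitochondrial genes, 9 of 13 peroxisomal genes and 9 of 12 peroxins rose in Matrigel, with median changes of 0.59, 0.73, 0.51 and 0.43 log2 units. Beside the genes above, Acaa1b rose by 1.06 averaged over the lines, Hadh by 1.02, Acadvl by 0.89, Amacr by 0.86, Acadm by 0.83, Hadha by 0.81, Etfdh by 0.79 and Hadhb by 0.75. The peroxins Pex19, Pex26, Pex16 and Pex11a rose by 0.75, 0.74, 0.74 and 0.73. The remaining rises were smaller: Etfb, Crat, Crot, Decr2, Pex6, Acadl, Pex13, Eci1, Eci2, Pex5, Pex7, Hsd17b4, Decr1 and Pex14 rose by 0.31 (Pex14) to 0.70 (Etfb). In the fit over all probe sets, at least 1 other set of Crat, Acadl, Hsd17b4, Pex5, Pex6, Pex13 and Pex16 did not pass, with changes from −0.001 (Pex13) to 0.30 (Hsd17b4).

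Pecr was the sole gene of the 42 that fell in Matrigel, with 378 and 430 in 14B3 and 367 and 489 in 9A1 Matrigel cultures. Every Matrigel array was below every basal array, as for 13.6% of all genes, and the log2 change was −0.61 (SE 0.11, adjusted p = 0.0012), while a dim second probe set gave −0.12 (adjusted p = 0.464). The 10 genes without a call were Cpt1a, Acads, Etfa, Echs1, Acox3, Acot8, Acaa1a, Pex3, Pex2 and Pex5l, with changes of 0.02 (Pex5l) to 0.32 (Pex2). With the replicate block Acot8 (adjusted p = 0.0271) and Pex2 (adjusted p = 0.035) also passed.

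Set directly against aggregates, Matrigel cultures had 29 of the 42 genes lower (69.0%) and 0 higher, also at an unadjusted p below 0.05 by limma, where 12.7% of all genes were lower and 13.9% higher. The median was −0.55 log2 units, against −0.10 over all genes. In 25 genes every Matrigel array lay below every aggregate array, as in 13.5% of all genes. The 4 genes lower by at least 1 log2 unit, as were 1.51% of all genes, were all peroxisomal: Amacr, Acox2, Scp2 and Ehhadh.

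Amacr gave 222 and 224 in 14B3 and 300.2 and 353 in 9A1 Matrigel cultures, below all aggregate values, with a log2 change of −1.29 (SE 0.09, adjusted p = 5.29e-06). Acox2 was lower by a log2 change of −1.15 (SE 0.17, adjusted p = 3.79e-04) and Scp2 by −1.09 (SE 0.09, adjusted p = 1.31e-05), without overlap for either gene. Ehhadh was lower by −1.03 (SE 0.18, adjusted p = 0.00133), and here Matrigel arrays of 9A1 overlapped aggregate arrays of 14B3.

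By class, 2 of 3 shuttle genes, 9 of 14 mitochondrial genes, 11 of 13 peroxisomal genes and 7 of 12 peroxins were lower in Matrigel than in aggregates. Crat (−0.97), Pex11a (−0.91), Pex16 (−0.88), Hadhb (−0.83), Cpt2 (−0.82), Acadl (−0.80), Hsd17b4 (−0.79), Hadh (−0.77) and Acaa2 (−0.75) followed the 4 peroxisomal genes. Another 16 genes, Eci2, Hadha, Pex19, Acaa1b, Crot, Pex13, Etfdh, Pecr, Decr2, Acadvl, Acox3, Pex7, Decr1, Pex26, Eci1 and Pex6, were lower by log2 changes between −0.32 (Pex6) and −0.65 (Eci2). At least 1 other probe set of Crat, Acadl, Decr1, Scp2, Pecr, Pex6 and Pex16 did not pass here, with changes from −0.35 (Crat) to −0.11 (Pex16). The 13 without a call were Cpt1a, Acadm, Acads, Etfa, Etfb, Echs1, Acot8, Acaa1a, Pex2, Pex3, Pex5, Pex5l and Pex14, with changes from −0.36 (Acads) to 0.04 (Pex2). With the replicate block Acadm, Acads, Acot8 and Acaa1a passed as well (adjusted p = 0.0279, 0.0284, 0.026 and 0.0294), which made 33.

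**Figure D3:**
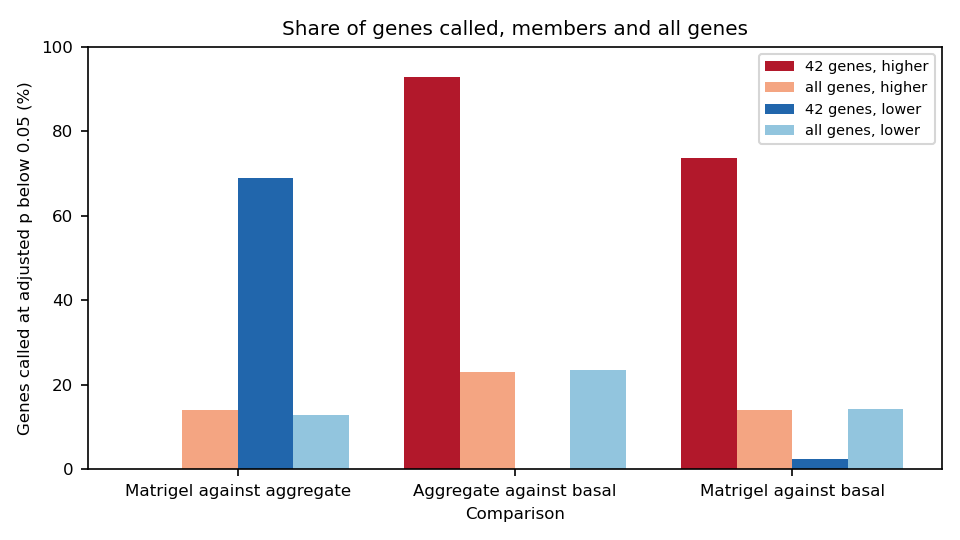
Share of the 42 genes and of all 12393 genes that passed the test in each culture comparison, in percent, with dark bars for the 42 genes, pale bars for all genes, red for higher and blue for lower. The 42 genes stand at 69.0% lower in Matrigel against aggregates, and at 92.9% and 73.8% higher in aggregates and in Matrigel, both against basal culture.

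Because the comparisons share arrays, the order of the 3 cultures was also read from the arrays themselves. In 21 of the 42 genes (50%) every aggregate array was above every Matrigel array and every Matrigel array above every basal array, as in 5.11% of all genes. They were Cpt2 and Crat of the shuttle, Acaa2, Acadm, Acadvl, Hadh, Hadha, Hadhb and Etfdh of mitochondria, Acox2, Amacr, Scp2, Crot and Eci2 of peroxisomes, and the peroxins Pex6, Pex7, Pex11a, Pex13, Pex16, Pex19 and Pex26. By culture means alone the order held in 40 of 42, with Pecr and Pex2 as the exceptions, and in 30.6% of all genes. Summed over the 42 genes, intensity was 60169 to 64285 on Matrigel arrays, 91051 to 94947 on aggregate arrays and 37526 to 42094 on basal arrays.

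Proliferation markers ran in the opposite order. All 5 measured (Mki67, Top2a, Birc5, Rrm2 and Cdk1) were lower in aggregates than in basal culture, with a median change of −3.97, lower in Matrigel than in basal culture, with a median of −1.29, and higher in Matrigel than in aggregates, with a median of 2.68. Their summed intensity was 5613 to 8038 on Matrigel arrays, 590 to 1661 on aggregate arrays and 14812 to 17512 on basal arrays. Of 7 hepatoblast and hepatocyte markers, Alb, Afp, Ttr, Apoa1 and Hnf4a rose in both cultures relative to basal culture when averaged over the lines, Krt18 fell in aggregates and Krt8 did not pass. Within the lines, 4 of the 7 rose in 14B3 and 5 in 9A1, in either culture. The response of Afp differed between the lines, by a log2 difference of −3.52 for Matrigel (adjusted p = 0.014) and −3.29 for aggregates (adjusted p = 0.0265). Afp gave log2 intensities of 11.20 and 10.64 in 14B3 aggregates, against 10.53 and 10.45 in 14B3 basal cultures. Their summed intensity was 59484 to 67227 on Matrigel arrays, 56341 to 78973 on aggregate arrays and 29439 to 34200 on basal arrays.

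Of 4 bile duct markers Epcam rose in both cultures, Krt7 and Sox9 fell in aggregates and Krt19 did not pass, and they summed to 18257 to 22369 on Matrigel, 16285 to 20093 on aggregate and 15544 to 20057 on basal arrays. The 5 blood, 5 endothelial and 4 fat markers had median log2 intensities of 6.14 to 6.80 on all arrays, in the background range, where Ptprc of blood passed as higher in aggregates and Cd68 of blood and Cdh5 of endothelium in Matrigel, relative to basal culture. Within the lines, 1 endothelial marker passed in Matrigel in 14B3 and 0 in 9A1, and Cdh5 gave log2 intensities of 8.47 and 8.87 in 14B3 and of 7.02 and 7.23 in 9A1 Matrigel cultures. The 6 stellate and mesenchymal markers summed to 1111 to 3481 on Matrigel, 1124 to 1245 on aggregate and 1076 to 1199 on basal arrays, with Reln higher in aggregates and Acta2 and Col1a1 higher in Matrigel. Tested within the lines, 2 of the 6 were called higher in Matrigel in 9A1 and 0 in 14B3. Acta2 gave log2 intensities of 8.82 and 8.84 in 14B3 and of 11.17 and 10.62 in 9A1 Matrigel cultures. The part of these markers in the changes of the 42 genes was not tested.

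Few of the genes passed the test between the lines. Averaged over cultures, 3 of the 42 genes differed between 14B3 and 9A1, 1 higher and 2 lower in 14B3, where 6.01% of all genes differed, 2.57% higher and 3.45% lower. The gene higher in 14B3 was Acaa1b (Entrez Gene 235674), a peroxisomal thiolase for straight chains. On 14B3 arrays it gave 1202 and 1210 in Matrigel, 2933 and 2028 in aggregates and 298 and 375 in basal culture. The 9A1 arrays gave 57.0 and 70.8 in Matrigel, 80.9 and 64.3 in aggregates and 57.3 and 48.8 in basal culture. Every 14B3 array was above every 9A1 array, as in 0.428% of all genes, with a log2 difference of 3.995 (SE 0.12, adjusted p = 2.38e-09). All 6 of the 9A1 values lay in the background range, so the difference does not give the fold between the lines.

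Acaa1b was also the sole gene of the 42 whose response to culture differed between the lines by the test of the difference, which 0.468% of all genes passed for aggregates and 0.686% for Matrigel. In aggregates relative to basal culture it rose by 2.87 in 14B3 (adjusted p = 9.36e-07) and gave 0.45 in 9A1 (adjusted p = 0.111), a difference of 2.42 (SE 0.29, adjusted p = 0.00259). In Matrigel relative to basal culture it rose by 1.85 in 14B3 (adjusted p = 8.15e-05) and gave 0.27 in 9A1 (adjusted p = 0.503), a difference of 1.59 (SE 0.29, adjusted p = 0.0283). The Matrigel difference lost its call without any 1 of the 4 basal arrays, Matrigel 9A1 replicate 1 or either Matrigel 14B3 array, with adjusted p between 0.0529 and 0.148. Acaa1b averaged 8.38 log2 units in 14B3 basal cultures, also in the background range, so its rises in 14B3 may start from background signal. For its paralog Acaa1a the difference between the lines averaged over cultures did not pass (0.16, SE 0.11, adjusted p = 0.554).

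Ehhadh was lower in 14B3 than in 9A1 by a log2 difference of −0.998 (SE 0.15, adjusted p = 0.00162). The log2 difference, 14B3 minus 9A1, was −1.41 in Matrigel (adjusted p = 0.00857), −1.51 in aggregates (adjusted p = 0.0108) and −0.07 in basal culture (adjusted p = 0.998). The test of the difference in response gave −1.34 for Matrigel (adjusted p = 0.179) and −1.44 for aggregates (adjusted p = 0.168), so it did not pass. It passed for both without aggregate 14B3 replicate 1 (adjusted p = 0.0457 and 0.0198) and for Matrigel without aggregate 14B3 replicate 2 (adjusted p = 0.0457).

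Decr2 (Entrez Gene 26378) gave 281 and 307 in Matrigel, 437 and 411 in aggregates and 205 and 212 in basal culture on 14B3 arrays. On 9A1 arrays it gave 406 and 420.3 in Matrigel, 542 and 622 in aggregates and 278 and 296 in basal culture. The 14B3 arrays were lower within each culture, by a log2 difference of −0.47 on average (SE 0.07, adjusted p = 0.00251). With the replicate block 5 of the 42 genes differed between the lines, with Acadl (−0.29, adjusted p = 0.0255) and Pex14 (0.25, adjusted p = 0.0424) added, and the Matrigel response of Acadl differed too (−0.84, adjusted p = 0.0447, against 0.129 without the block).

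Tested within each line, 32 of the 42 genes rose and 1, Pecr, fell in 14B3 aggregates, and 38 rose in 9A1 aggregates, both relative to basal culture, where 15.7% and 17.4% of all genes rose and 17.5% fell in 14B3. The medians were 1.00 log2 units in 14B3 and 1.12 in 9A1. In Matrigel relative to basal culture 22 rose and 1, again Pecr, fell in 14B3, and 24 rose in 9A1, where 8.91% and 9.71% of all genes rose and 7.6% fell in 14B3. The medians were 0.49 in 14B3 and 0.57 in 9A1. Between the Matrigel 14B3 arrays, labelled 10 and 5 days, the 42 genes differed by a median of −0.09 log2 units (10 minus 5 days), with a range of −0.65 to 0.37.

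**Figure D4:**
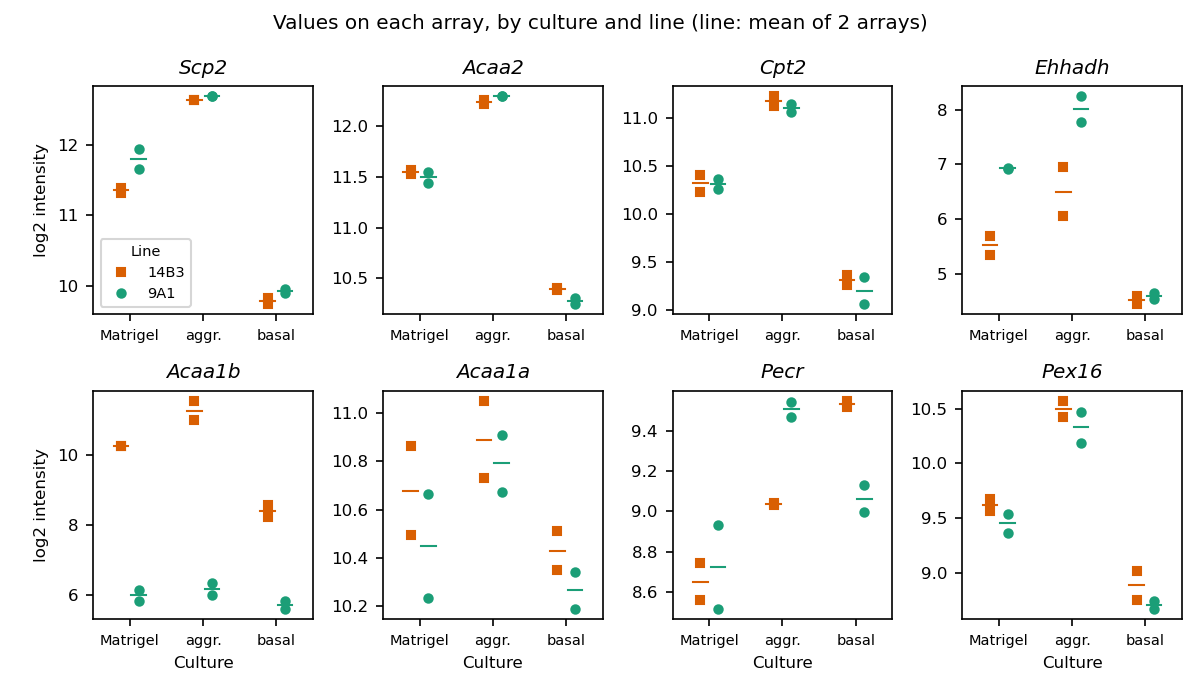
Log2 intensity on each array for 8 of the genes, by culture from Matrigel to basal, with squares for 14B3, circles for 9A1 and short lines for the mean of 2 arrays. Scp2, Acaa2, Cpt2 and Pex16 order the cultures alike in both lines, Ehhadh separates the lines outside basal culture, and Acaa1b lies far higher in 14B3 than in 9A1 in all 3 cultures.

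Other genes of the pathway were read from 7 further lists. Their counts stand against shares over all genes of 22.9% higher and 23.4% lower in aggregates and 14.1% and 14.3% in Matrigel, both relative to basal culture, and 13.9% and 12.7% in Matrigel relative to aggregates. Of 15 measured genes of fatty acid uptake and activation, 8 rose in aggregates and 8 in Matrigel, both relative to basal culture, and 7 were lower in Matrigel than in aggregates, while the rest of each comparison did not pass. The list's median change was 0.42 in aggregates and 0.43 in Matrigel. Fabp1, the fatty acid binding protein of liver cytosol, rose by 5.86 in aggregates (SE 0.25, adjusted p = 4.73e-09) and by 4.97 in Matrigel (SE 0.25, adjusted p = 5.09e-08). Cd36, a fatty acid translocase of the cell surface, rose by 3.30 in aggregates and by 1.65 in Matrigel, and was lower in Matrigel than in aggregates (−1.64, SE 0.25, adjusted p = 5.95e-04). Slc27a4, a fatty acid transport protein with acyl-CoA synthetase activity, rose by 3.24 and 2.29 in these cultures. In basal culture Fabp1 gave log2 intensities of 9.15 and 10.59 in 14B3, and of 6.73 and 7.10, in the background range, in 9A1. Its response was smaller in 14B3 than in 9A1 by the test of the difference, by a log2 difference of −3.14 both for Matrigel (adjusted p = 0.0131) and for aggregates (adjusted p = 0.0174), and no other gene of this list passed that test. Cd36 averaged 6.23 log2 units in basal culture, in the background range. So did Bdh1, Hao1, Cidec, Acss2 and Phyh, described next, with 6.37, 5.82, 6.47, 7.48 and 7.85, so their changes were measured against signal that may be background. The same limit holds for the basal means of Gpd1 (7.77), Nudt7 (7.81), Hacl1 (7.92), Acot2 (7.97), Acot1 (8.34), Esrra (8.37) and Ppargc1b (8.45). It also holds for Ephx2 in 9A1 basal cultures (7.84 and 8.12).

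The 32 measured genes of other peroxisomal enzymes and transporters included 20 that rose and 1 that fell in aggregates, with a median of 0.61, and 15 that rose and 1 that fell in Matrigel, with a median of 0.24. In Matrigel against aggregates 12 were lower and 1 higher. Far1 ran in the opposite order to most of the list, averaging 9.43 log2 units in Matrigel, 8.47 in aggregates and 10.17 in basal culture. Its basal arrays overlapped neither other culture. Phyh, the hydroxylase that starts the alpha-oxidation of phytanic acid, rose by 3.70 in aggregates (SE 0.11, adjusted p = 3.8e-10) and by 2.49 in Matrigel. Ephx2, an epoxide hydrolase, rose by 2.35 and 1.58, and Hao1, a hydroxyacid oxidase of liver, by 2.28 and 2.13, averaged over the lines. Hao1 gave log2 intensities of 9.97 and 8.42 in 9A1 aggregates and of 8.79 and 9.12 in 9A1 Matrigel cultures. Its 14B3 arrays gave at most 7.62, in the background range in every culture. By the test of the difference, 1 gene of this list had a lower response to aggregates in 14B3 than in 9A1. For Matrigel 0 passed that test. Hacl1, the lyase that follows Phyh in alpha-oxidation, was among the genes lower in Matrigel than in aggregates (−1.44, SE 0.16, adjusted p = 6.2e-05), as were Phyh (−1.21) and Nudt7 (−0.98), a hydrolase of coenzyme A.

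Breakdown of branched and odd chain acyl-CoA was more mixed: of 17 measured genes 10 rose and 3 fell in aggregates and 5 rose and 2 fell in Matrigel. Acad11, a dehydrogenase for very long chains, rose by 3.52 in aggregates (SE 0.09, adjusted p = 1.77e-10) and 2.42 in Matrigel. Hibadh, an enzyme of valine breakdown, rose by 1.51 and 0.84, whereas Acad9, an acyl-CoA dehydrogenase that also helps assemble respiratory complex I, fell by 1.02 in aggregates. Against aggregates, Matrigel had 4 of these genes lower and 2 higher, with Acad11 at −1.10.

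Ketone body and acetyl-CoA genes numbered 6 measured, of which 5 rose in aggregates and 3 in Matrigel and the rest did not pass. Bdh1, which interconverts the main ketone bodies, rose by 4.80 in aggregates (SE 0.29, adjusted p = 7.34e-08) and 4.16 in Matrigel. Acss2, which makes acetyl-CoA from acetate in the cytosol, rose by 2.83 and 1.46, and Oxct1, an enzyme of ketone body use, rose by 1.25 in aggregates. In Matrigel against aggregates 3 were lower, among them Acss2 (−1.37) and Oxct1 (−1.16).

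Of 4 genes that set the malonyl-CoA level, 1 rose and 1 fell in each culture relative to basal culture. Fasn, the fatty acid synthase that consumes malonyl-CoA, fell by 1.29 in aggregates (SE 0.13, adjusted p = 5.41e-06) and by 0.89 in Matrigel. Mlycd, which degrades malonyl-CoA, rose by 0.90 and 0.46.

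Among 13 measured PPAR receptors, coactivators and related regulators, 8 rose and 2 fell in aggregates, and 5 rose and 1 fell in Matrigel. Ppargc1b, a coactivator of mitochondrial genes, rose by 1.38 in aggregates (SE 0.12, adjusted p = 1.1e-06) and 0.88 in Matrigel, and Esrra, the estrogen-related receptor that it activates, by 1.10 and 0.73. Ppara rose by 0.99 in aggregates (SE 0.14, adjusted p = 9.32e-05), where it averaged 7.67 ± 0.48, against 6.68 ± 0.21 log2 units in basal culture (SD, n = 4 each), both in the background range. Pparg, another receptor, was brighter and averaged highest in Matrigel. It gave 10.69 ± 0.16 in Matrigel, 10.36 ± 0.13 in aggregates and 9.96 ± 0.31 in basal culture (SD, n = 4 each). Lpin1, a coactivator and phosphatidate phosphatase, was lower in Matrigel than in aggregates (−0.69, SE 0.17, adjusted p = 0.0107), 1 of 7 genes of this list that were lower, and 1 was higher.

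PPAR target genes outside beta-oxidation did not move as 1 group: of 13 measured, 6 rose and 2 fell in aggregates, with a median of 0.22, and 6 rose and 1 fell in Matrigel, with a median of 0.17. Cidec, a lipid droplet protein, rose by 1.93 in both cultures. The acyl-CoA thioesterase genes Acot1 and Acot2, which are near-identical and may share signal, rose by 1.73 and 1.58 in aggregates, and Gpd1, a glycerol phosphate dehydrogenase, rose by 1.13 in Matrigel. Vnn1, a pantetheinase and known target of PPAR alpha, fell by 1.46 in Matrigel (SE 0.20, adjusted p = 2.24e-04). In aggregates Vnn1 also averaged below basal culture (9.74 against 10.89 log2 units), with overlap of arrays. Pltp did so without overlap (9.10 against 10.43). In Matrigel against aggregates 2 were higher and 2 lower, near the shares over all genes, with Angptl4, an inhibitor of lipoprotein lipase, at 1.25 and Acot2 at −1.41.

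**Figure D5:**
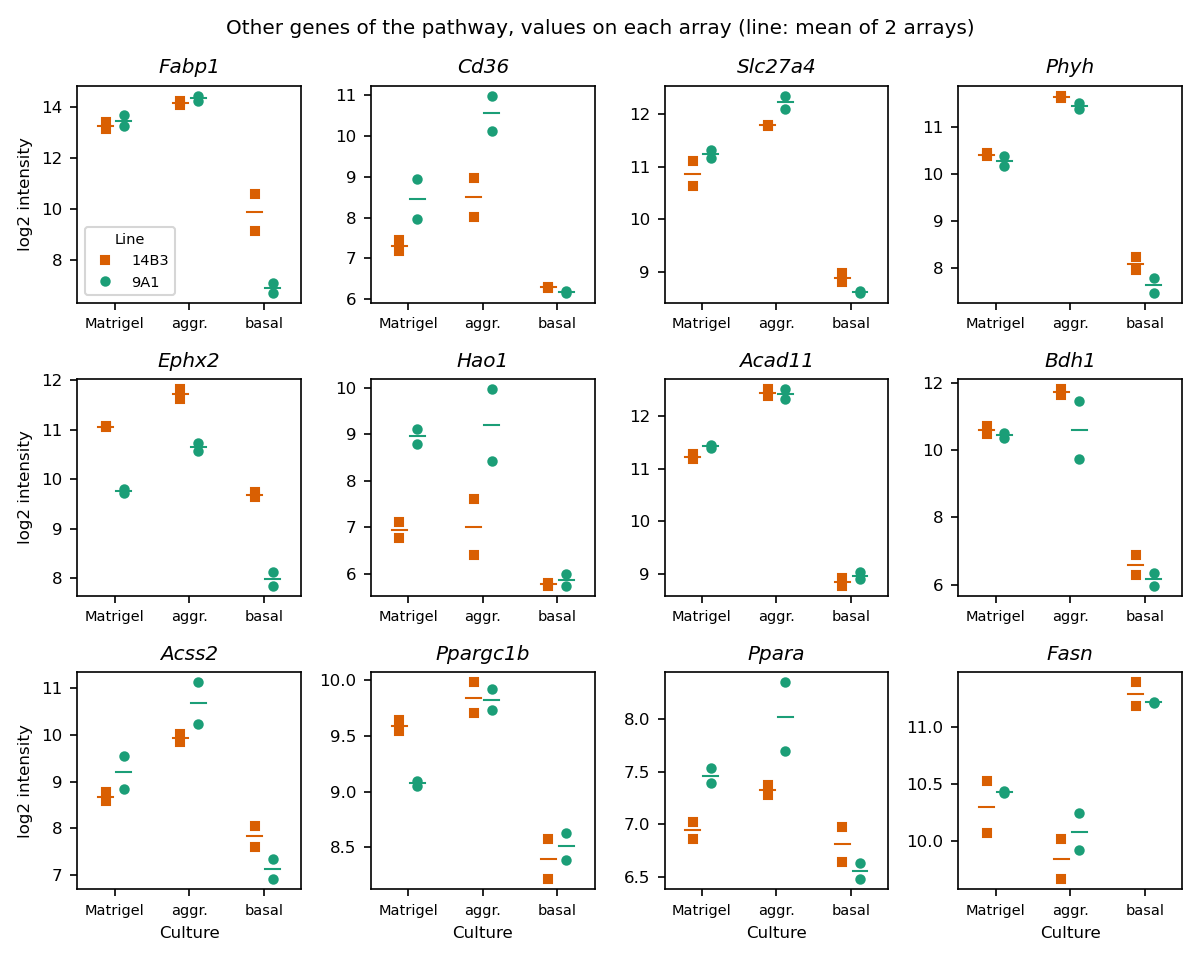
Log2 intensity on each array for 12 other genes of the pathway, by culture from Matrigel to basal, with squares for 14B3, circles for 9A1 and short lines for the mean of 2 arrays. Most lie highest in aggregates and lowest in basal culture in both lines, and Fasn lies highest in basal culture. Arrays of the lines do not overlap within Matrigel or within aggregates for Cd36, Slc27a4, Ephx2, Hao1, Acss2 and Ppara.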

How the data were processed

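Total RNA of 12 BMEL cultures was measured on Affymetrix mouse 430A arrays. The authors deposited signal intensities, for which the submitters' processing notes name R 2.3.1 and RMA. RMA output is log2, but the deposited intensities were linear (14.4 to 27318), and their log2 was used. Array medians were 268 to 281, and precision is limited by how many arrays there were. The genome build and annotation behind the probe sets are not given in the sources used here.

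Of 22690 probe sets 20380 had 1 gene symbol in the platform annotation, and the 691 with several, 1555 with none and 64 controls were left out. Each gene took its brightest probe set over the 12 arrays, and no filter on dim genes was applied. All 12393 genes were fitted with limma 3.58.1 in R 4.3.3 (lmFit, eBayes) on the means of the 6 groups (6 residual degrees of freedom, median residual SD 0.170), with two-sided p-values and Benjamini-Hochberg adjustment over the whole table. The fit was tested on simulated data with independent arrays, so that test did not cover deviations shared by same-numbered arrays.

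The genes and lists were chosen with earlier results of these data known. Values on each array are given for up to the 6 largest called rises and 4 largest called falls per culture comparison, up to 3 called genes per direction between the lines and 4 per difference in response, and for up to 3 called genes per other list and comparison. Replicates are described as biological duplicates, but nothing says that they were separate cultures, so p-values measure the spread between these samples, which may be technical.

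Deviations of same-numbered arrays correlated in all 15 pairs of groups (r from 0.10 to 0.64), within and between the lines. The highest was between the lines, 0.64 for Matrigel 9A1 and Matrigel 14B3. Same-numbered arrays thus share deviations, and the labels do not say what they have in common. The main p-values come from the fit without replicate numbers. A fit blocked on them, within each line, is given where a call changes. Other alternatives were 2 scalings, other choices of probe set, 64 added before log2, genes above the median level, a variance trend, array weights and leaving out each array. Array weights came out equal for the 2 arrays of each group, so they could not down-weight a single array. Every probe set of the genes was added after seeing the data. Promoters came from RefSeq (GRCm38.p6). Python 3.11.15 with matplotlib 3.10.9 drew the figures.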

Additional observations from a re-analysis of the deposited data

Results flagged for a closer look

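The response of Acaa1b to aggregate culture differed between the lines by a test of the difference itself: it was larger in 14B3 than in 9A1 by 2.42 log2 units (SE 0.29, adjusted p = 0.00259 by limma). Its response to Matrigel was also larger in 14B3 than in 9A1, by 1.59 log2 units (SE 0.29, adjusted p = 0.0283), a call lost without any 1 of the 4 basal arrays, Matrigel 9A1 replicate 1 or either Matrigel 14B3 array (adjusted p between 0.0529 and 0.148). All 9A1 values of Acaa1b were in the background range, so its response in that line was measured on dim signal. The mean of Acaa1b in 14B3 basal cultures, 8.38 log2 units, was also in that range.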

How the results depend on the processing

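Over 5382 single-gene results under another setting, 5236 kept their side of the threshold, 95 lost the call and 50 gained one. Results whose sign changed without a call in either fit were counted among the 5236. With a call in at least 1 of the fits, 1 changed sign: Pex13 in Matrigel against basal culture, −0.001 in its dim second probe set. In aggregates against basal culture 39 of 42 genes were called, with 34 (of 36 genes left) to 40 under other settings and 37 to 39 without 1 array. In Matrigel against basal culture 32 were called, with 28 to 34 under other settings and 28 to 33 without 1 array. In Matrigel against aggregates 29 were called, with 26 to 33 under other settings and 25 to 31 without 1 array. With the replicate block these counts were 39, 34 and 33. Between the lines 3 were called, with 5 under the block, 5 with probe sets averaged, 6 with 64 added before log2, 0 among genes above the median level, and 3 to 4 without 1 array. The difference in response was called for 1 gene in aggregates, with 0 among genes above the median level and 1 to 2 without 1 array. In Matrigel it was called for 1 gene, with 2 under the block, 0 among genes above the median level and 0 to 2 without 1 array. Acaa1b, Ehhadh and Decr2 are below the median level and so were not tested in that setting. The block changed no calls of the 42 genes beyond those given with the results. Signal near background limits Ehhadh, Acox3, Pex5l, the 9A1 values of Acaa1b and its mean in 14B3 basal cultures (8.38 log2 units). It also limits Acox2, Crat, Decr2, Amacr, Pex11a, Pex26 and Pex3 in their lowest group.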
